A study of Saccharomyces cerevisiae with 20 samples.

Results

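Gene expression was compared between RM11-1a and D273-10B, a pair of wild type strains of the budding yeast Saccharomyces cerevisiae. All 8 libraries labelled with either strain were used, 4 of each, out of 20 libraries of 5 strains, and the counts of all 7127 genes in the table were read. RM11-1a derives from a vineyard isolate and is labelled MATa leu2Delta0 ura3Delta0 HO::kanMX. It thus has mating type a, lacks the leucine gene LEU2 and the uracil gene URA3, and carries a drug resistance cassette in place of HO, the endonuclease of mating-type switching. D273-10B has long been used for work on mitochondria and is labelled MATAlpha mal, that is, mating type alpha and unable to use maltose. Both strains were grown untreated, with shaking, at 30 °C in synthetic complete medium with glucose. They were harvested in early exponential phase at an optical density of 0.8 to 1.1. Libraries were made by Smart-seq2, a method that copies whole transcripts into cDNA, multiplies the cDNA by PCR and cuts it with a transposase, and were read as 75-base single reads. The labels mention no molecular identifiers, so copies of 1 molecule are counted separately.

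Budding yeast has a pair of haploid mating types. Alpha cells make the activator alpha1, which turns on alpha-specific genes, and the repressor alpha2, which with Mcm1 turns off a-specific genes. Cells of mating type a need neither, and their a-specific genes are on by default. In glucose, growing cells keep genes of respiration, stress defence and poor nitrogen sources low, and strains differ in how far they do so. The strains differ in mating type, marker genes and many unlinked variants. Any of these can enter the values below, and for a single gene they cannot in general be told apart.

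Total counts were 6123237 to 10794587 in RM11-1a and 6143878 to 12103234 in D273-10B, and 6428 to 6741 genes had at least 1 count. Levels are given as CPM, a gene's counts per 1000000 counts of its library, in the order of replicates 1 to 4. The smallest level taken as shown was 3 counts, which is 0.248 to 0.49 CPM in these libraries. Libraries of 1 strain differed by far more than counting error, with chi-square values of 56.7 to 870 per degree of freedom. Nothing in the labels says whether replicates were separate cultures. The p-values rest on the spread between libraries of the same strain, estimated from all 20 libraries except where stated, and this spread may be technical. The library numbers start with 66 for RM11-1a replicates 1 and 2 and D273-10B replicate 1, with 69 for the other 3 of D273-10B, and with 74 for the other 2 of RM11-1a. This series of numbers, which the labels do not explain, is partly confounded with strain.

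Some libraries stood apart. Of 10 genes with at most 3 counts in RM11-1a replicates 1, 3 and 4 but at least 10 CPM in every BY4741 library, the library labelled RM11-1a replicate 2 held 30.9% to 98.5% of the BY4741 level (median 69.1%). MET17, at 0.255 CPM on average in BY4741, was there at 24.5% of its level in the other RM11-1a libraries. D273-10B replicate 1 had the steepest rise of levels with gene length, 0.42 on the log2 scale per doubling, against -0.32 to 0.06 in the other 7. D273-10B replicates 2 and 3 shared raised levels on chromosome IX, described at the end. Values of several genes and counts of several lists are therefore also given without the first 2 of these libraries, though not all that changed. Counts of several lists are also given without the last pair, and the named genes that lost their call without that pair are listed at the end. For RM11-1a the second value of each list is always the library labelled RM11-1a replicate 2.

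Of 6119 genes tested, 1127 (18.4%) differed between the strains by edgeR's quasi-likelihood test at an adjusted p under 0.05. In RM11-1a 421 (6.88%) were higher and 706 (11.5%) lower, and 977 of the 1127 differed by at least 2-fold and 147 by at least 8-fold. Log2 fold changes are RM11-1a over D273-10B throughout, and their median over all genes tested was -0.18. All libraries of 1 strain lay on the same side of all those of the other in 785 genes (12.8%), 575 (9.40%) with RM11-1a above and 210 (3.43%) with RM11-1a below. The number of calls was 1082 (17.4%) without the library labelled RM11-1a replicate 2, 1599 (25.8%) without D273-10B replicate 1 and 1553 (25.0%) without both. The fit without both called 637 genes higher (10.2%) and 916 lower (14.7%). The number of calls was 293 without D273-10B replicates 2 and 3, with 147 higher (2.38%) and 146 lower (2.37%), and 459 (7.50%) with the library series as a block, where 251 (4.10%) were higher and 208 (3.40%) lower, so that 54.7% of the calls were higher in RM11-1a instead of 37.4%. With the 8 libraries alone in the fit, 226 genes (3.81%) were called, 128 higher (2.16%) and 98 lower (1.65%). With a trend of gene length removed from each library, 1216 (19.9%) were called, 510 higher (8.33%) and 706 lower (11.5%). Leaving out RM11-1a replicate 3 gave 687 calls, RM11-1a replicate 4 gave 671, and D273-10B replicate 2 gave 700. Calls that held in all 20 fits with 1 library left out numbered 477.

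In the mating type genes, the direction followed the labels. Of 7 a-specific genes 6 were higher in RM11-1a, and all 5 alpha-specific genes were lower. These 11 of 12 were called again in the fits without either doubted library or both, and all 12 were called with the library series as a block. STE2, the receptor for alpha-factor (chrVI:82580-83875, plus strand), was at 747, 492, 569 and 846 CPM in RM11-1a and 5.17, 1.65, 1.47 and 3.09 CPM in D273-10B. Its log2 fold change was 7.72 with a standard error of 0.52, edgeR adjusted p = 3.60e-09. The a-factor precursor gene MFA2 had 246, 251, 589 and 402 CPM against 0.148, 1.07, 1.65 and 1.79 CPM. MFA1, the other a-factor gene, had 27.4, 68.4, 42.8 and 25.0 CPM against 0, 0.578, 0.347 and 0.488 CPM. The strains were far apart in all 3 genes, and the log2 fold changes of MFA1 and MFA2 were 6.45 and 7.93. AGA2, the a-agglutinin subunit that binds the partner cell, followed with 5.23. ASG7, an inhibitor of pheromone signalling, had 3.13 and STE6, the exporter of a-factor, 2.44. BAR1, the protease that degrades alpha-factor, was at 79.0, 72.3, 46.0 and 110 CPM in RM11-1a and 3.84, 50.6, 15.0 and 2.77 CPM in D273-10B. D273-10B replicates 2 and 3 lay above replicates 1 and 4, and the second overlapped RM11-1a. BAR1 lies on chromosome IX and did not pass (log2 fold change 1.77 with a standard error of 0.62, edgeR adjusted p = 0.0533), but it was called without D273-10B replicates 2 and 3 (edgeR adjusted p = 3.09e-05).

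The a-specific genes share a regulatory sequence, shown here because all 7 promoters hold it. The letters are those of the RefSeq sequence of the reference genome R64, not of either strain, and are read 5′ to 3′ on the strand of the gene. In capitals are the alpha2 site CATGTAA and, between or beside such sites, the Mcm1 box, searched as CC, 3 bases of any kind, T, 2 bases of any kind and GG. Both were searched on both strands and are also marked as their reverse complements.
STE2 (chrVI:82340-82380, plus strand): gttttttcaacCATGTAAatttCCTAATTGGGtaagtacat
MFA1 (chrIV:1384946-1384986, plus strand): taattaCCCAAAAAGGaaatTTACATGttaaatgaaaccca
MFA2 (chrXIV:352164-352204, plus strand): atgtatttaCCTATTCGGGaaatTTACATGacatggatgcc
STE6 (chrXI:46475-46515, minus strand): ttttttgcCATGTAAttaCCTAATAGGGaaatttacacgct
BAR1 (chrIX:322072-322112, plus strand): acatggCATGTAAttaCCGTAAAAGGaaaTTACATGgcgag
AGA2 (chrVII:437103-437143, minus strand): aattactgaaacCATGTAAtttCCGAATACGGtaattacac
ASG7 (chrX:101899-101939, minus strand): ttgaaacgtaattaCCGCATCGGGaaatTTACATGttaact
In all 7 an Mcm1 box lies beside at least 1 alpha2 site, and in BAR1 it lies between a pair of them. The alpha2 site was found on either strand in the 500 bases before the start codon of all 7 a-specific genes, of 1 of 5 alpha-specific genes (SAG1) and of 376 of all 5987 promoters (6.28%). The Mcm1 box alone is common, at 1825 promoters (30.5%), and was in 11 of the 12 mating type genes. BAR1, which did not pass, has 2 alpha2 sites in the stretch shown and each of the other 6 genes has 1. A match is only a match of letters.

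The alpha-specific genes went the other way. MF(ALPHA)1, the main alpha-factor precursor gene (chrXVI:193648-194145, plus strand), was at 2300, 4480, 6620 and 7030 CPM in D273-10B and at 1.63, 1.79, 0.834 and 0.818 CPM in RM11-1a. This was the widest gap in the list, with a log2 fold change of -12.34 with a standard error of 0.65, edgeR adjusted p = 1.19e-10. MF(ALPHA)2 had 72.9, 88.0, 66.5 and 90.7 CPM in D273-10B against 0.817, 0.896, 0.834 and 1.64 CPM, a log2 fold change of -6.51. The a-factor receptor gene STE3 had 157, 49.2, 19.2 and 40.4 CPM in D273-10B and 1.31, 8.06, 1.85 and 1.75 CPM in RM11-1a, where the library labelled replicate 2 was highest (log2 fold change -4.41). SAG1, the alpha-agglutinin gene, was at 129, 25.4, 11.9 and 18.2 CPM in D273-10B and 1.96, 2.24, 2.59 and 1.99 CPM in RM11-1a. AFB1, which encodes a barrier to a-factor, differed least, with a log2 fold change of -2.64 and an edgeR adjusted p of 4.30e-06. In STE3 and SAG1, D273-10B replicate 1 stood well above the other 3 D273-10B libraries, but the strains did not overlap. Without that library SAG1 had a log2 fold change of -3.42. STE3 had -5.39 with the library labelled RM11-1a replicate 2 left out. In 3 of the 5 promoters the Q box CAATGNCAG, bound by alpha1, was found on either strand, and in 88 of all 5987 (1.47%). It is shown in capitals below, again from R64 on the strand of the gene.
STE3 (chrXI:114947-114987, minus strand): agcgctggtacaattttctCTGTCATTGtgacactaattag
MF(ALPHA)2 (chrVII:345433-345473, minus strand): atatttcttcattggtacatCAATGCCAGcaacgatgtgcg
SAG1 (chrX:445111-445151, minus strand): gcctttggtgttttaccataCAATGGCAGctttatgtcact

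The cassettes of chromosome III that hold the mating type genes differed in the same way. The alpha1 gene had 0 counts in all 4 RM11-1a libraries, both at the expressed locus (MATALPHA1) and at the silent copy HMLALPHA1, whose sequences are shared. In D273-10B MATALPHA1 was at 22.3, 23.4, 30.2 and 24.1 CPM, so it was at least 63.8-fold lower in RM11-1a against the floor of 3 counts per library. HMRA1, the reference copy of the a1 gene, was at 63.9, 66.1, 134 and 100 CPM in RM11-1a and had 2 counts in all of D273-10B. The alpha2 genes MATALPHA2 and HMLALPHA2 differed less, as did HMRA2, the a2 gene of the silent a cassette, which shares sequence with them. Their log2 fold changes were -2.36, -2.30 and -1.93, with counts shared among these copies and therefore uncertain.

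**Figure D1:**
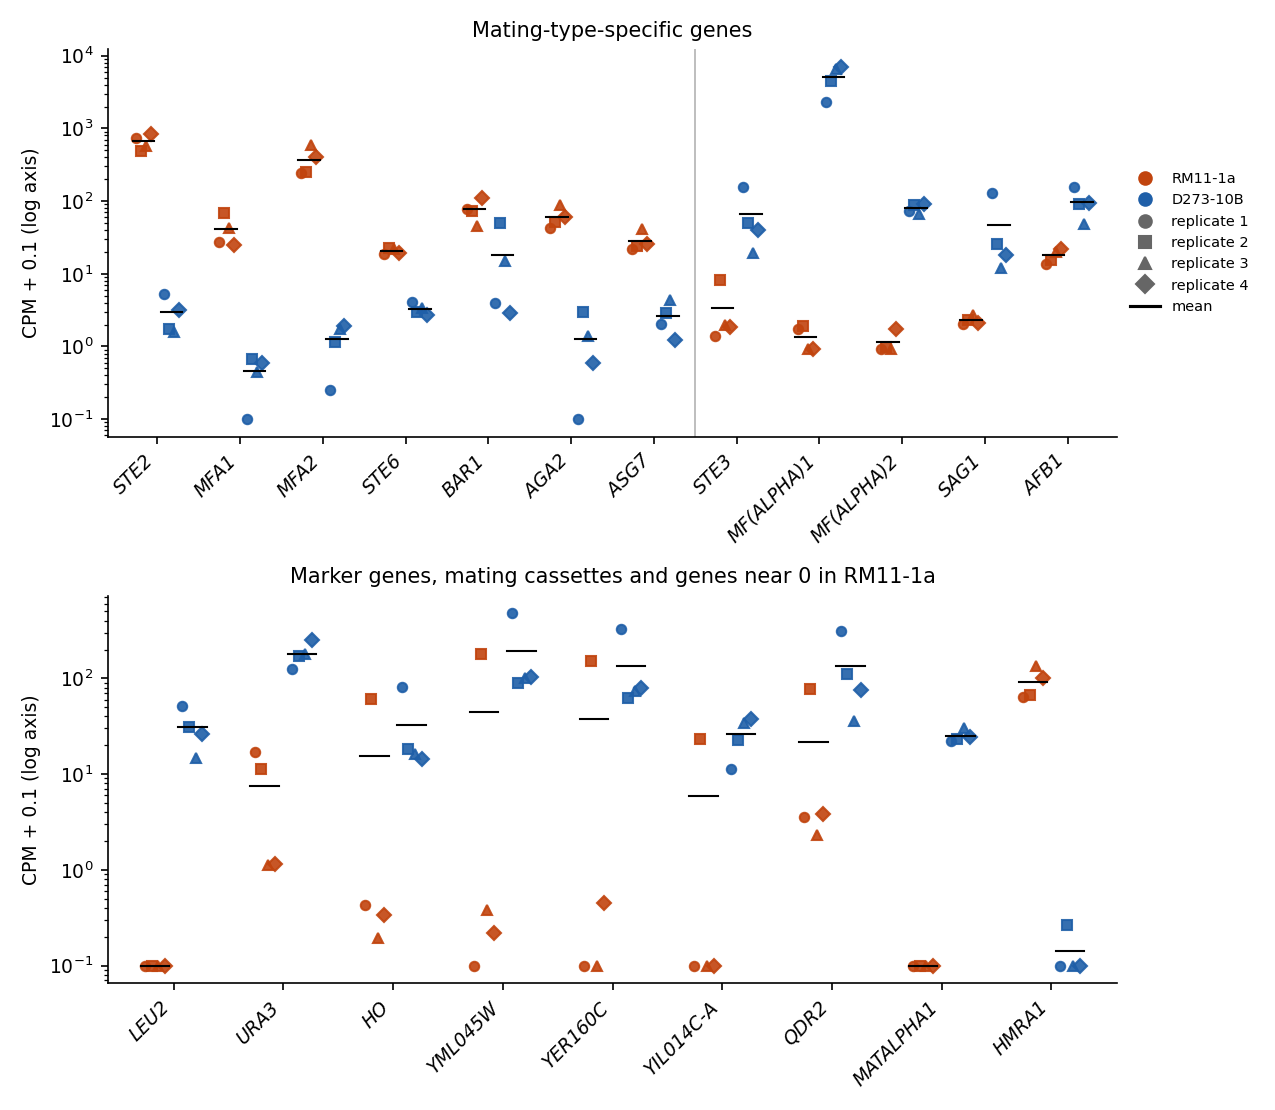
Levels of mating type genes (top, a-specific left of the line, alpha-specific right) and of markers, cassettes, QDR2 and genes near 0 in RM11-1a (bottom), as CPM + 0.1 on a log axis, 1 point per library and a bar at the mean. STE2 runs from 492 to 846 CPM in RM11-1a and from 1.47 to 5.17 CPM in D273-10B, while HO, YML045W, YER160C, YIL014C-A and QDR2 are high in RM11-1a in replicate 2 alone.

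Of 27 genes of the pheromone response pathway, 2 (7.41%) were called higher and 4 (14.8%) lower, shares close to the 6.88% and 11.5% over all genes, with a median log2 fold change of -0.53 against -0.18. FUS1, a membrane protein of cell fusion that pheromone induces, was at 12.1, 14.6, 8.62 and 9.00 CPM in RM11-1a and 1.18, 0.909, 1.30 and 1.14 CPM in D273-10B (log2 fold change 3.03 with a standard error of 0.34, edgeR adjusted p = 5.22e-06). It was low in both strains, and the libraries did not overlap. STE5, the scaffold of the pheromone kinase cascade, had 4320, 40000, 96.6 and 6560 CPM in D273-10B against 36.6, 36.1, 32.8 and 34.5 CPM in RM11-1a. D273-10B ran from 96.6 to 40000 CPM, while RM11-1a was steady (log2 fold change -8.78 with a standard error of 2.13, edgeR adjusted p = 0.00801). Of the 20 libraries of the series 7 had STE5 at 4320 CPM or more, 3 of D273-10B, 3 of CEN.PK2 and 1 of W303, and the other 13 had 96.6 CPM or less.

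The markers in the genotype labels were then read. LEU2 had 0 counts in all 4 RM11-1a libraries and 51.3, 30.6, 14.7 and 25.9 CPM in D273-10B, at least 78.2-fold lower in RM11-1a against the floor of 3 counts per library. URA3 was at 16.7, 11.2, 1.02 and 1.05 CPM in RM11-1a and 124, 169, 179 and 251 CPM in D273-10B (log2 fold change -4.88 with a standard error of 0.81, edgeR adjusted p = 0.000456). RM11-1a replicates 1 and 2 were above replicates 3 and 4, and all 4 were far below D273-10B. HO was at 0.327, 60.9, 0.0926 and 0.234 CPM in RM11-1a and 81.9, 18.1, 16.1 and 14.3 CPM in D273-10B. In the library labelled RM11-1a replicate 2 HO was within the range of D273-10B, and it did not pass (log2 fold change -1.09 with a standard error of 1.05, edgeR adjusted p = 0.497). Without that library and D273-10B replicate 1 the log2 fold change was -6.64 (edgeR adjusted p = 1.63e-09). The 6 maltose genes measured for the mal label were at most 17.7 CPM in any of the 8 libraries. MAL12, a maltase gene, was at 3.27, 2.39, 3.80 and 4.79 CPM in RM11-1a and 5.47, 5.95, 7.37 and 5.53 CPM in D273-10B (log2 fold change -1.06 with a standard error of 0.30, edgeR adjusted p = 0.0211). MAL12 was not called without the library labelled RM11-1a replicate 2 (edgeR adjusted p = 0.0571), with the library series as a block (0.156), with the 8 libraries alone (0.102) or without D273-10B replicates 2 and 3 (0.223). MAL32 had -0.90 with a standard error of 0.30, edgeR adjusted p = 0.0426 and was not called without both doubted libraries (edgeR adjusted p = 0.0509) or in these other 4 fits. The other 4 did not pass, with log2 fold changes of -0.20, -0.69, -0.98 and -0.20 for MAL11, MAL13, MAL31 and MAL33. As background, glucose represses these genes in yeast.

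Some genes were seen in 1 strain only. With at most 3 counts in every library of 1 strain and at least 10 CPM in every library of the other, there were 3 genes near 0 in RM11-1a (LEU2, HMLALPHA1 and MATALPHA1) and 2 near 0 in D273-10B (HMRA1 and RDT1). RDT1, a short gene of chromosome III (chrIII:30910-30996, plus strand), was at 12.6, 23.4, 30.8 and 19.7 CPM in RM11-1a and 0.148, 0.248, 0.260 and 0.163 CPM in D273-10B. It was also at 6.02 to 24.5 CPM in the libraries of the other 3 strains. With RM11-1a replicates 1, 3 and 4, the genes near 0 in RM11-1a became 7. The other 4 are HO, YIL014C-A, YML045W and YER160C, the last 2 of which belong to Ty retrotransposons, whose many near-identical copies make their counts uncertain. YML045W was at 0, 179, 0.278 and 0.117 CPM in RM11-1a and 478, 90.0, 100 and 103 CPM in D273-10B. YER160C followed it with 0, 151, 0 and 0.351 CPM and 329, 61.9, 73.0 and 79.3 CPM. YIL014C-A, a frame of no known role, had 0, 23.0, 0 and 0 CPM and 11.2, 22.7, 34.2 and 37.3 CPM. None of these 4 was called with all libraries, and all 4 were called once the library labelled RM11-1a replicate 2 was left out (YML045W, log2 fold change -10.24, edgeR adjusted p = 1.27e-08). QDR2, a multidrug exporter, was also highest of RM11-1a in replicate 2, at 3.43, 77.3, 2.22 and 3.74 CPM against 309, 111, 36.1 and 75.8 CPM. Unlike those 4 genes, QDR2 was above 3 counts in every RM11-1a library and was called with all libraries. Its log2 fold change was -2.65 with all libraries and -4.93 without the doubted ones (edgeR adjusted p = 2.51e-07). REE1, seen in RM11-1a only in the library labelled replicate 2 (81.2 CPM, against 93.4 CPM on average in BY4741), was at 0.0207 CPM on average in D273-10B. Reads were assigned by reference gene, and a gene missing from a strain and a gene too diverged to be matched cannot be told apart.

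The pathways of the deleted markers were read next. Of 13 genes of pyrimidine synthesis and uptake, 3 were called higher in RM11-1a (URA1, URA4 and URA10) and 1 lower (URA3 itself), against 6.88% higher and 11.5% lower over all genes. The median log2 fold change was 0.07. URA1, dihydroorotate dehydrogenase, was at 1110, 1260, 260 and 481 CPM in RM11-1a and 199, 128, 56.9 and 107 CPM in D273-10B (log2 fold change 2.52 with a standard error of 0.47, edgeR adjusted p = 0.00130). URA4, dihydroorotase, had 405, 358, 264 and 378 CPM against 121, 72.7, 33.9 and 47.7 CPM (log2 fold change 2.22 with a standard error of 0.35, edgeR adjusted p = 0.000302). In both genes every RM11-1a library lay above every D273-10B library. URA10, the minor orotate phosphoribosyltransferase, had a log2 fold change of 2.14 and an edgeR adjusted p of 0.00219. All 3 remained called without both doubted libraries, with the library series as a block and without D273-10B replicates 2 and 3. The activator gene PPR1 and the uptake and salvage genes FUR1, FUR4 and FUI1 did not pass (log2 fold changes 0.71, -0.27, 0.24 and -0.10). URA1 and URA4, but not URA10, hold the Ppr1 motif, searched on both strands as CGG and CCG with 6 bases of any kind between them, within 500 bases of the start codon, as does URA3. It is in 4 of the 13 promoters of the list and 162 of all 5987 (2.71%), and is in capitals below (R64, strand of the gene).
URA1 (chrXI:24995-25055, plus strand): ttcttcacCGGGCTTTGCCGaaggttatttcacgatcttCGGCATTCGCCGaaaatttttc
URA3 (chrV:116007-116037, plus strand): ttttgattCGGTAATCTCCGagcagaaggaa
URA4 (chrXII:963645-963675, plus strand): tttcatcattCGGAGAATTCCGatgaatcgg

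In the synthesis of branched-chain amino acids 3 of 15 genes (20.0%) were higher, against 6.88% over all genes. Another 2 (13.3%, against 11.5%) were lower, the deleted LEU2 and the activator gene LEU3 (log2 fold change -0.77). LEU3 was not called without D273-10B replicate 1, without both doubted libraries or with the library series as a block. It was also not called with the 8 libraries alone or without D273-10B replicates 2 and 3. OAC1, a mitochondrial carrier that also exports the leucine precursor isopropylmalate, was at 71.4, 43.7, 171 and 169 CPM in RM11-1a and 24.2, 8.18, 2.43 and 9.44 CPM in D273-10B (log2 fold change 3.25 with a standard error of 0.56, edgeR adjusted p = 0.000690). BAT1, the mitochondrial aminotransferase, had 310, 234, 358 and 398 CPM against 155, 61.5, 22.3 and 52.4 CPM (log2 fold change 2.06 with a standard error of 0.42, edgeR adjusted p = 0.00246). The strains did not overlap in either gene, and D273-10B replicate 1 was the D273-10B library nearest to RM11-1a. ILV6, the regulatory subunit of acetolactate synthase, had 1.16 (edgeR adjusted p = 0.0256). OAC1 and BAT1 were called again without both doubted libraries and with the library series as a block, and ILV6 only without both (with the block, edgeR adjusted p = 0.112). Without D273-10B replicates 2 and 3 OAC1 was the only 1 of these 3 called, and BAT1 had a log2 fold change of 1.66 (edgeR adjusted p = 0.0565). The Leu3 motif, CCGG and again CCGG with 2 bases of any kind between, was found on either strand before 6 of the 15 genes and before 16 of all 5987 (0.267%). It is in capitals below for BAT1, LEU2 and LEU1, isopropylmalate isomerase, which did not pass (log2 fold change 0.52, edgeR adjusted p = 0.424). OAC1 has no match in its 500 bases.
BAT1 (chrVIII:517372-517402, plus strand): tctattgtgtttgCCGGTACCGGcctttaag
LEU1 (chrVII:478852-478882, minus strand): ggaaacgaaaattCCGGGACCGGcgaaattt
LEU2 (chrIII:91114-91144, plus strand): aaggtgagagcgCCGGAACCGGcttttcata

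The largest rises in RM11-1a outside mating type and markers were in a cell wall gene and a stress gene. CWP1, a mannoprotein linked to the glucan of the cell wall (chrXI:261132-261851, plus strand), was at 1410, 814, 3430 and 2710 CPM in RM11-1a and 3.55, 2.48, 2.08 and 2.93 CPM in D273-10B. The strains were further apart here than in any other gene of this group (log2 fold change 9.32 with a standard error of 0.52, edgeR adjusted p = 1.78e-10). The other 3 strains held 107 to 551 CPM of CWP1, between the levels of RM11-1a and D273-10B. Its tandem neighbour CWP2 was at 2300, 1530, 3790 and 2680 CPM in RM11-1a and 515, 1180, 1200 and 606 CPM in D273-10B and did not pass (log2 fold change 1.23, edgeR adjusted p = 0.0706). HSP12, a small membrane-binding stress protein (chrVI:107256-107585, plus strand), was at 797, 592, 7200 and 2890 CPM in RM11-1a and 3.99, 3.30, 5.46 and 4.23 CPM in D273-10B (log2 fold change 9.08 with a standard error of 0.80, edgeR adjusted p = 2.45e-07). The RM11-1a libraries numbered from 74 were above those numbered from 66, and the 4 D273-10B libraries lay within 3.30 to 5.46 CPM. HSP12 was at 9.21 to 18.3 CPM in CEN.PK2, 55.6 to 144 CPM in W303 and 155 to 316 CPM in BY4741. Fewer cells with a transcript and less transcript per cell cannot be told apart in such bulk samples.

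Among the other large rises, PHO3, an acid phosphatase that releases thiamine from its phosphates, had 176, 427, 131 and 151 CPM against 2.96, 2.97, 1.99 and 1.95 CPM (log2 fold change 6.26 with a standard error of 0.51, edgeR adjusted p = 7.20e-08). AQY1, a water channel, was at 53.9, 22.2, 133 and 82.1 CPM in RM11-1a and 3.40, 2.07, 0.607 and 0.651 CPM in D273-10B (log2 fold change 5.28 with a standard error of 0.62, edgeR adjusted p = 8.17e-06). Both genes were separated by a wide gap, and AQY1 was at 20.7 CPM or less in all libraries of the other 3 strains. FMP45, a membrane protein of the cell cortex, had 41.6, 40.8, 354 and 276 CPM and 3.10, 4.87, 2.25 and 0.651 CPM, a log2 fold change of 5.73. CTT1, the cytosolic catalase, had 249, 120, 633 and 818 CPM and 28.1, 22.6, 10.8 and 10.3 CPM, a log2 fold change of 4.46. In FMP45, RTN2, NQM1 and GRE1 the RM11-1a libraries numbered from 74 were well above those numbered from 66, and all 4 lay above D273-10B. RTN2, a reticulon of the endoplasmic reticulum, had a log2 fold change of 4.48, NQM1, a transaldolase, 4.18, and GRE1, a hydrophilin, 4.04. COA3, an assembly factor of cytochrome c oxidase, was at 139, 104, 348 and 263 CPM in RM11-1a and 4.73, 6.11, 9.36 and 10.9 CPM in D273-10B (log2 fold change 4.42 with a standard error of 0.54, edgeR adjusted p = 1.30e-05). COA3 was at 62.3 to 230 CPM in the other 3 strains, all above D273-10B. SCS3, a protein of lipid storage, had a log2 fold change of 4.08 (edgeR adjusted p = 0.00219) with 5.22 without D273-10B replicate 1, and was not called without D273-10B replicates 2 and 3 (edgeR adjusted p = 0.0590). ELO1, a fatty acid elongase, was at 388, 774, 850 and 777 CPM against 51.6, 52.6, 34.2 and 65.9 CPM, and its log2 fold change was 3.49 with a standard error of 0.35, edgeR adjusted p = 1.08e-06.

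**Figure D2:**
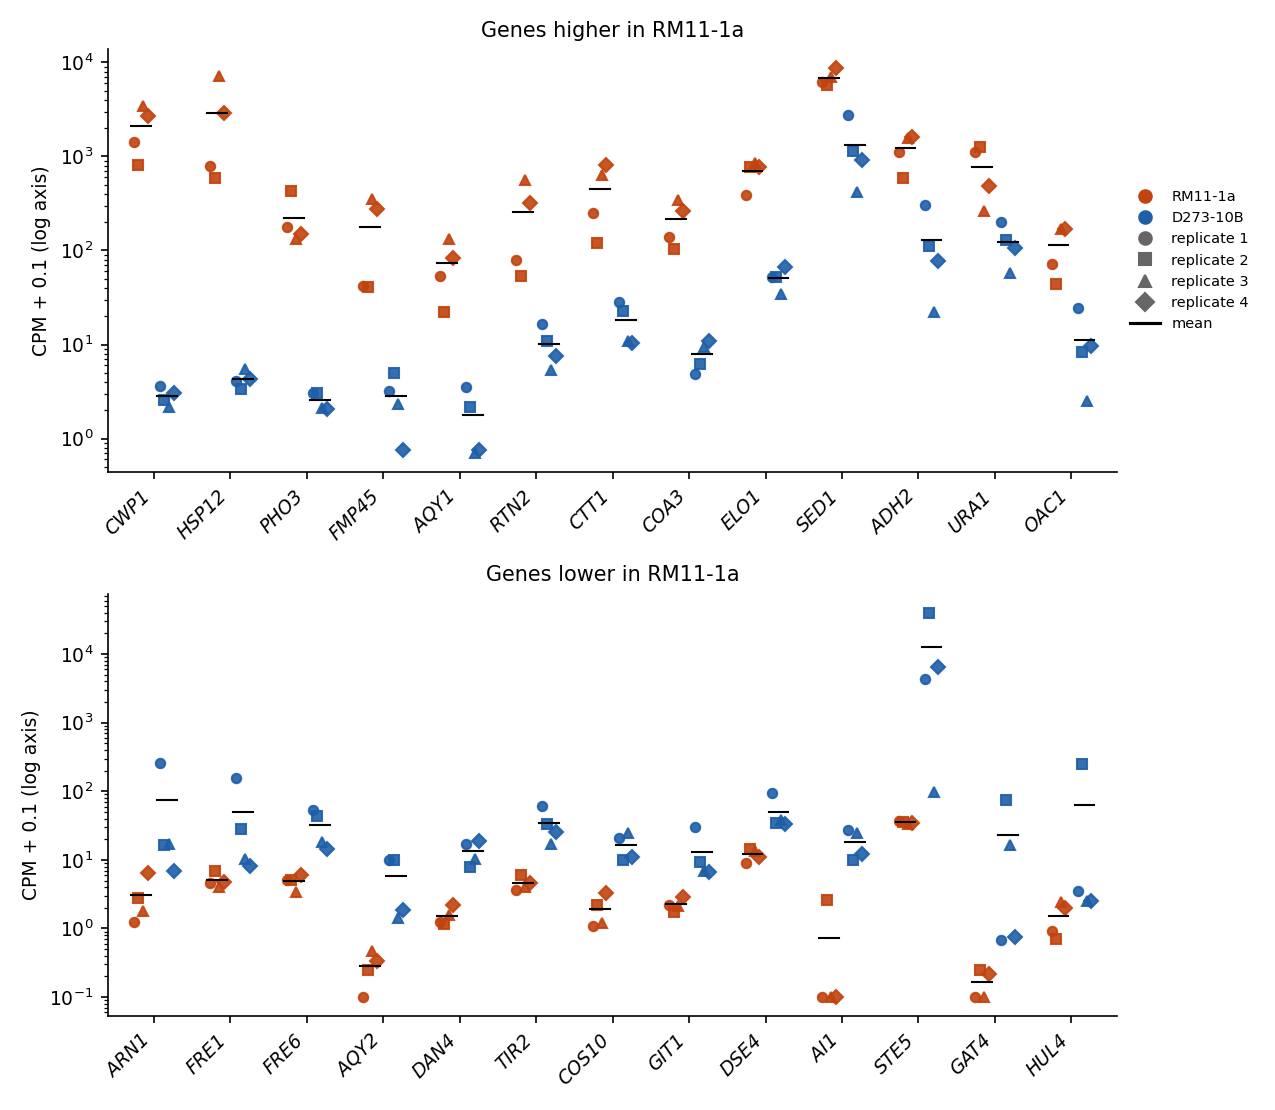
Levels of genes called higher (top) and lower (bottom) in RM11-1a, as CPM + 0.1 on a log axis, 1 point per library and a bar at the mean. CWP1 is at 814 CPM or more in RM11-1a and 3.55 CPM or less in D273-10B, while GAT4 and HUL4 are high in D273-10B replicate 2 and STE5 spans 96.6 to 40000 CPM within D273-10B.

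Genes that rise as growth slows or under stress were mostly higher in RM11-1a. Of 29 late stress genes, 19 were called higher and 1 lower, with a median log2 fold change of 2.19 against -0.18 over all genes. Over all genes 6.88% were called higher. Without both doubted libraries 19 were higher and 2 lower, and with the library series as a block 13 were higher and none lower. The member called lower, TMA10, had a log2 fold change of -3.25. Summed over the list, the level was 4850, 4310, 22400 and 12800 CPM in RM11-1a and 1510, 3490, 5280 and 3600 CPM in D273-10B. The summed levels overlap, and the RM11-1a libraries numbered from 74 were several times those numbered from 66. Members with the largest values beside HSP12 were RTN2, GRE1 and FMP16, a mitochondrial protein at 18.1, 16.9, 278 and 106 CPM against 0.887, 4.46, 7.54 and 8.63 CPM (log2 fold change 3.86 with a standard error of 0.78, edgeR adjusted p = 0.00245). The transcription factor genes of this response did not rise with them. MSN2, MSN4 and GIS1 had log2 fold changes of -0.27, 0.21 and -0.71 with no call, and the kinase gene RIM15 was lower (-1.07, edgeR adjusted p = 0.0424). RIM15 was not called without both doubted libraries (edgeR adjusted p = 0.0654).

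The stress response element AGGGG, bound by Msn2 and Msn4, was found on either strand before 14 of the 19 late stress genes called higher and 2041 of all 5987 genes (34.1%). Over all genes called, it was before 199 of 402 (49.5%) called higher and 222 of 656 (33.8%) called lower. HSP12 has 5 matches, in capitals, within the stretch of R64 shown here because this gene had the widest gap of the group.
HSP12 (chrVI:106816-107076, plus strand): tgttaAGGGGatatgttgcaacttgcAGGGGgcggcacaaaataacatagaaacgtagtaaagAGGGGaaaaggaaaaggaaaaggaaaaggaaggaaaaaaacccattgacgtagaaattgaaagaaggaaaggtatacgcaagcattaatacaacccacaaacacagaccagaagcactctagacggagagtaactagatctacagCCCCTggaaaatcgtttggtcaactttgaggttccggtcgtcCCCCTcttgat

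Of 27 heat shock protein genes 3 (11.1%) were higher and 3 (11.1%) lower, against 6.88% and 11.5% over all genes (median log2 fold change -0.15). Without both doubted libraries 7 were higher and 3 lower (10.2% and 14.7% over all genes), and the median was 0.44. The 3 called higher with all libraries were HSP12, HSP26 and HSP30, a membrane protein that stress induces. HSP26, a small heat shock protein, had 8.17, 40.2, 91.0 and 53.2 CPM in RM11-1a and 11.8, 9.58, 14.7 and 12.5 CPM in D273-10B, which overlap (log2 fold change 1.68 with a standard error of 0.49, edgeR adjusted p = 0.0228). HSP30 had 49.8, 22.1, 193 and 179 CPM against 33.3, 9.67, 6.59 and 11.6 CPM, also with an overlap (log2 fold change 2.73 with a standard error of 0.66, edgeR adjusted p = 0.00801). HSP12 was the only heat shock gene called higher with the library series as a block, where HSP26 and HSP30 had edgeR adjusted p = 0.100 and 0.0575, with the 8 libraries alone and without D273-10B replicates 2 and 3. HSP104, the disaggregase, was lower at 14.2, 15.7, 42.7 and 36.1 CPM against 78.2, 108, 62.8 and 21.3 CPM, again with an overlap (log2 fold change -1.55 with a standard error of 0.41, edgeR adjusted p = 0.0133). Without D273-10B replicates 2 and 3 its log2 fold change was -0.85 (edgeR adjusted p = 0.277). The heat shock element, searched as TTC, GAA and TTC with 2 bases of any kind between each, was before 13 of the 27 genes and 89 of all 5987 (1.49%). Of 25 genes of peroxide and redox defence 6 (24.0%) were higher, CTT1 first, and 1 (4.00%) lower. Among 19 genes of trehalose and glycogen, 4 (21.1%) were higher and 1 (5.26%) lower. Without both doubted libraries 6 were higher and 2 lower. Of these 19, 1 was higher without D273-10B replicates 2 and 3 (2.38% over all genes). GLG2, which primes glycogen, had a log2 fold change of 2.10 with a standard error of 0.35, edgeR adjusted p = 0.000439, and TPS1, trehalose phosphate synthase, 1.80 with a standard error of 0.50, edgeR adjusted p = 0.0176. TPS1 was not called with the library series as a block (edgeR adjusted p = 0.0734).

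**Figure D3:**
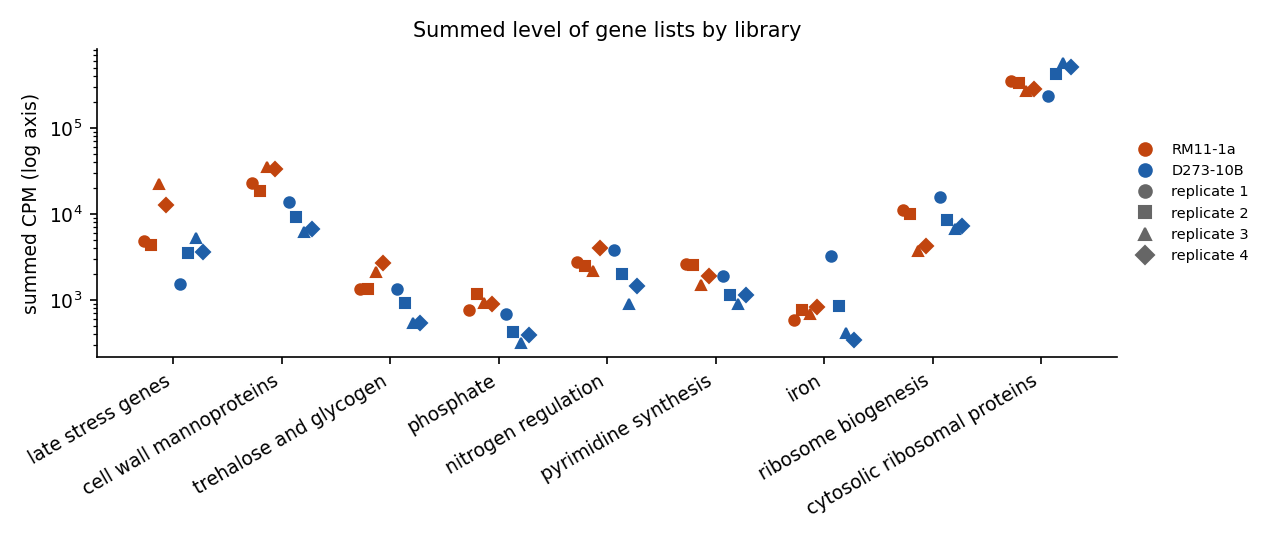
Summed CPM of the members of 9 gene lists on a log axis, 1 point per library. Late stress genes reach 22400 and 12800 CPM in RM11-1a replicates 3 and 4, cell wall mannoproteins do not overlap between the strains, and the iron list peaks in D273-10B replicate 1 at 3250 CPM.

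In the cell wall, 10 of 18 mannoprotein and glucan-enzyme genes (55.6%) were higher and 1 (5.56%) lower, with a median log2 fold change of 1.23. Over all genes the shares were 6.88% and 11.5%. The summed level was 23000, 18300, 35400 and 33200 CPM in RM11-1a and 13800, 9230, 6130 and 6680 CPM in D273-10B, with no overlap. Without both doubted libraries 14 were higher and 1 lower, with the library series as a block 6 were higher, and without D273-10B replicates 2 and 3, 4 were higher. SED1, a major structural wall protein, was at 6120, 5700, 7050 and 8620 CPM in RM11-1a and 2780, 1130, 414 and 910 CPM in D273-10B (log2 fold change 2.29 with a standard error of 0.41, edgeR adjusted p = 0.000851). PIR3, a wall protein bound through its repeats, had 77.4, 40.6, 157 and 118 CPM against 23.6, 23.1, 5.11 and 7.98 CPM (log2 fold change 2.55 with a standard error of 0.43, edgeR adjusted p = 0.000594). SPS100, a spore wall protein, was low in both strains with a log2 fold change of 2.08.

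Among adhesins and anaerobic wall proteins more genes were called lower than higher. Of 5 flocculin genes and 2 of their regulators, 5 (71.4%, against 11.5% over all genes) were lower in RM11-1a and none higher. All 5 were FLO genes. FLO11, the flocculin of surface adhesion, was at 1.14, 1.19, 2.22 and 1.75 CPM in RM11-1a and 6.80, 9.42, 10.5 and 2.28 CPM in D273-10B (log2 fold change -2.45 with a standard error of 0.55, edgeR adjusted p = 0.00512). FLO9 and FLO5 had log2 fold changes of -1.76 and -1.14. All 5 were at 14.6 CPM or less, the family shares repeats that make its counts uncertain, and with the library series as a block 1 of the 7 was called. None of the 7 was called without D273-10B replicates 2 and 3, where FLO11, FLO9 and FLO5 had edgeR adjusted p = 0.155, 0.0618 and 0.133. The DAN, TIR and PAU genes, whose products replace wall mannoproteins when oxygen is lacking, had 8 of 18 (44.4%) lower and 3 (16.7%) higher. Over all genes these shares were 11.5% and 6.88%. DAN4 was at 1.14, 1.05, 1.48 and 2.10 CPM in RM11-1a and 17.0, 7.68, 10.1 and 19.0 CPM in D273-10B (log2 fold change -3.45 with a standard error of 0.54, edgeR adjusted p = 0.000277). TIR2 had 3.59, 5.97, 3.98 and 4.44 CPM against 60.3, 33.0, 17.2 and 25.7 CPM (log2 fold change -3.07 with a standard error of 0.42, edgeR adjusted p = 5.33e-05). Neither gene overlapped between the strains. PAU14 and PAU1, near-identical seripauperins whose counts cannot be fully separated, had -3.73 and -3.58. Like them, COS10, of a family of chromosome ends that sorts membrane proteins, was lower, at 0.980, 2.09, 1.11 and 3.15 CPM against 20.5, 9.75, 24.4 and 10.9 CPM (log2 fold change -3.41 with a standard error of 0.52, edgeR adjusted p = 0.000181).

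In carbon metabolism, 9 of 35 genes (25.7%) of glycolysis and fermentation were higher and none lower, against 6.88% and 11.5% over all genes. Of these, 8 were among the 18 fermentation genes, 1 among the 8 of upper glycolysis and none among the 9 of lower glycolysis. Summed over the list, the level was 109000, 100000, 122000 and 121000 CPM in RM11-1a. In D273-10B it was 142000, 79500, 40800 and 63600 CPM, so replicate 1 lay above every RM11-1a library. Without both doubted libraries 14 of the 35 were higher and none lower (10.2% and 14.7% over all genes). Without D273-10B replicates 2 and 3, 4 of the 18 fermentation genes were called higher (2.38% over all genes). ADH2, the alcohol dehydrogenase that glucose represses, was at 1120, 597, 1580 and 1610 CPM in RM11-1a and 304, 111, 22.1 and 77.3 CPM in D273-10B (log2 fold change 3.20 with a standard error of 0.50, edgeR adjusted p = 0.000277). D273-10B replicate 1 was the closest of its strain to RM11-1a, with no overlap. ADH1, the main fermentative enzyme, had 3670, 3260, 4870 and 4940 CPM against 2280, 793, 225 and 574 CPM (log2 fold change 2.06 with a standard error of 0.42, edgeR adjusted p = 0.00266). GPP2, which releases glycerol, had a log2 fold change of 2.47 with a standard error of 0.35, edgeR adjusted p = 9.19e-05 and ALD3, an aldehyde dehydrogenase, 2.92 with a standard error of 0.39, edgeR adjusted p = 4.61e-05. Of 24 genes of the TCA and glyoxylate cycles 7 (29.2%) were higher and 1 (4.17%) lower. Without both doubted libraries 11 were higher and 1 lower. Without D273-10B replicates 2 and 3, 2 were higher (2.38% over all genes). MDH2, cytosolic malate dehydrogenase, was at 519, 577, 220 and 297 CPM in RM11-1a and 78.8, 60.4, 19.2 and 52.7 CPM in D273-10B (log2 fold change 2.77 with a standard error of 0.47, edgeR adjusted p = 0.000605). IDH1 and IDH2, the subunits of isocitrate dehydrogenase, had log2 fold changes of 1.82 and 2.10, with no call without D273-10B replicates 2 and 3 (edgeR adjusted p = 0.124 and 0.0755). In the respiratory chain 10 of 48 nuclear genes (20.8%) were higher and 1 (2.08%) lower. Without both doubted libraries 14 were higher and 1 lower. With the library series as a block 2 were higher (4.10% over all genes), and without D273-10B replicates 2 and 3 also 2 (2.38%). CYC7, the minor cytochrome c, was at 7.19, 11.3, 93.4 and 45.2 CPM in RM11-1a and 0.296, 1.90, 3.12 and 3.58 CPM in D273-10B (log2 fold change 3.73 with a standard error of 0.76, edgeR adjusted p = 0.00245). HMX1, heme oxygenase, was also higher (log2 fold change 1.65 with a standard error of 0.35, edgeR adjusted p = 0.00340).

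Of 21 genes of the mitochondrial genome 9 passed the filter on low counts. Of these 4 (44.4%, against 11.5% over all genes) were called lower, none higher and 5 neither. AI1 and AI4, reading frames within introns of COX1, and SCEI, the frame in the omega intron of the large ribosomal RNA, were nearly unseen in RM11-1a. AI1 had 0, 2.54, 0 and 0 CPM in RM11-1a and 9.91 to 27.0 CPM in D273-10B (log2 fold change -5.17 with a standard error of 0.96, edgeR adjusted p = 0.00126). The library labelled RM11-1a replicate 2 was the only one of its strain with counts. AI4 was at 0, 0.149, 0.0926 and 0 CPM against 3.84, 2.40, 5.46 and 1.46 CPM. SCEI had 0 counts in RM11-1a and 0.887, 5.45, 9.62 and 1.46 CPM in D273-10B, at least 11.1-fold lower in RM11-1a against the floor of 3 counts per library. ATP6, a subunit of the ATP synthase, had 0.817, 0.149, 0.741 and 0.584 CPM against 2.81, 1.49, 13.7 and 3.09 CPM (log2 fold change -3.53 with a standard error of 0.77, edgeR adjusted p = 0.00418). ATP6 was not called without D273-10B replicates 2 and 3 (edgeR adjusted p = 0.0507) or with the library series as a block (edgeR adjusted p = 0.0572). As background, Smart-seq2 primes on poly(A) tails, which yeast mitochondrial transcripts lack, and the 21 genes summed to 18.4 to 348 CPM in these libraries.

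Several genes for the use of poor nitrogen sources were higher in RM11-1a. Of 22 genes of nitrogen regulation and uptake 7 (31.8%) were higher and 1 (4.55%) lower, against 6.88% and 11.5% over all genes (median log2 fold change 0.46). Without both doubted libraries 10 were higher and 3 lower (10.2% and 14.7% over all genes). Without D273-10B replicates 2 and 3, 3 were higher and none lower (2.38% and 2.37%). GAT1, an activator of these genes, was at 16.0, 22.7, 28.6 and 52.9 CPM in RM11-1a and 7.09, 2.56, 2.17 and 2.28 CPM in D273-10B (log2 fold change 2.94 with a standard error of 0.42, edgeR adjusted p = 9.19e-05). MEP2, the high-affinity ammonium permease, had 10.9, 14.0, 15.9 and 41.7 CPM against 6.50, 2.48, 0.953 and 2.77 CPM (log2 fold change 2.57 with a standard error of 0.52, edgeR adjusted p = 0.00240). GAP1, the general amino acid permease, had 1.93 with a narrow overlap. DAL80, a repressor of the same genes, was also higher (3.25) but had at most 1.14 CPM. Of 15 genes for allantoin, urea and proline 4 (26.7%) were higher and 2 (13.3%) lower. The median log2 fold change of the list was 0.16 (-0.03 without both doubted libraries). PUT4, the proline permease, was at 23.5, 19.6, 70.5 and 109 CPM in RM11-1a and 5.76, 3.39, 2.60 and 3.26 CPM in D273-10B (log2 fold change 3.66 with a standard error of 0.47, edgeR adjusted p = 2.54e-05). PUT1, proline oxidase, and DAL3, of allantoin breakdown, had log2 fold changes of 1.79 and 2.47. PUT4, DAL3 and GAT1 were highest in RM11-1a replicates 3 and 4. PUT4 was also at 53.2 to 106 CPM in W303, and at 8.39 CPM or less in BY4741 and CEN.PK2.

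Among 22 phosphate genes 3 (13.6%) were higher and 2 (9.09%) lower, against 6.88% and 11.5% over all genes. PHO5, the phosphatase induced by phosphate lack, lies beside PHO3 on chromosome II and is similar in sequence, so counts of both are uncertain. It was at 36.4, 47.5, 34.6 and 40.7 CPM in RM11-1a and 8.57, 5.04, 3.21 and 3.74 CPM in D273-10B (log2 fold change 2.79 with a standard error of 0.30, edgeR adjusted p = 2.70e-06). PHO4, the activator of the pathway, had 113, 179, 100.0 and 107 CPM against 71.4, 35.3, 12.8 and 24.7 CPM (edgeR adjusted p = 0.00209), with no overlap. PHO80, PHO81 and PHO85, which control Pho4, did not pass (log2 fold changes -0.59, -0.10 and 0.66). GIT1, a permease of glycerophosphoinositol, was lower at 2.12, 1.64, 2.04 and 2.80 CPM against 29.6, 9.17, 6.76 and 6.51 CPM (log2 fold change -2.66 with a standard error of 0.41, edgeR adjusted p = 0.000244). The Pho4 motif CACGTG was before 15 of the 22 genes and 373 of all 5987 (6.23%). In fat breakdown, YAT1, carnitine acetyltransferase, was higher (log2 fold change 2.05 with a standard error of 0.38, edgeR adjusted p = 0.00127). PXA2, a subunit of the peroxisomal importer of fatty acids, was lower at 4.25, 2.39, 6.39 and 7.48 CPM against 14.5, 21.3, 30.6 and 20.8 CPM (log2 fold change -2.41 with a standard error of 0.45, edgeR adjusted p = 0.00133).

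**Figure D4:**
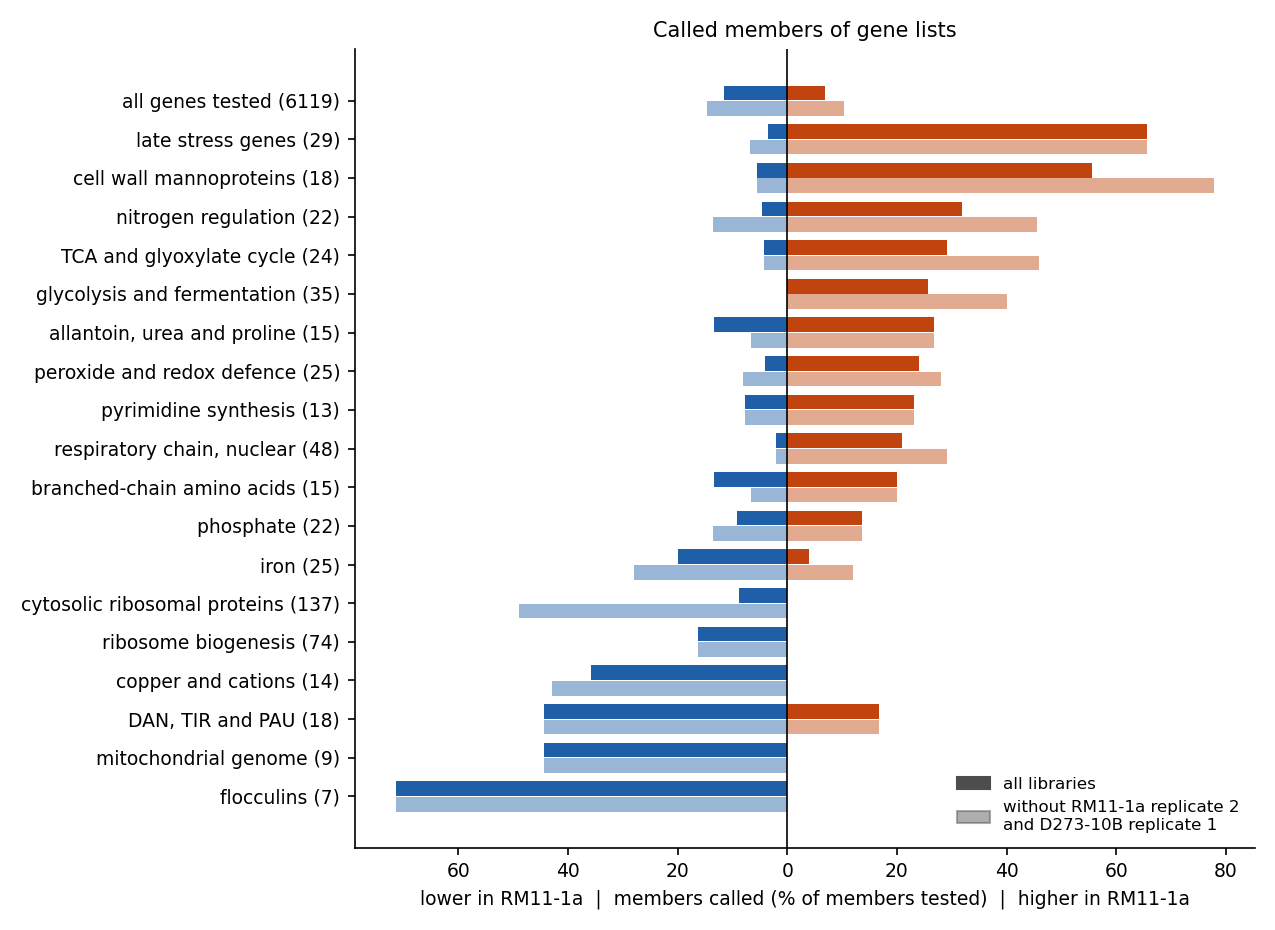
Share of tested members called higher (right) and lower (left) in RM11-1a for 18 gene lists and for all genes tested, with all libraries (dark) and with D273-10B replicate 1 and the library labelled RM11-1a replicate 2 left out (light), both as a percent of the members tested with all libraries. Late stress genes have 19 of 29 called higher, and ribosomal proteins go from 12 to 67 called lower.

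Among iron genes, some reductases and a transporter were lower in RM11-1a. Of 25 iron genes 5 (20.0%) were lower and 1 (4.00%) higher (HMX1), against 11.5% and 6.88% over all genes. ARN1, a siderophore transporter, was at 1.14 to 6.31 CPM in RM11-1a and 262, 16.4, 17.1 and 6.84 CPM in D273-10B (log2 fold change -4.55 with a standard error of 0.86, edgeR adjusted p = 0.00134). FRE1, a ferric reductase of the cell surface, had 3.89 to 6.87 CPM against 154, 27.8, 10.1 and 8.14 CPM (log2 fold change -3.24 with a standard error of 0.57, edgeR adjusted p = 0.000772). In both, D273-10B replicate 1 was several times the other 3, and the lowest D273-10B library was close to the highest of RM11-1a. FRE6, a reductase of the vacuole, was steadier at 5.06, 4.93, 3.34 and 5.96 CPM and 52.6, 44.2, 18.4 and 14.3 CPM (log2 fold change -2.90 with a standard error of 0.38, edgeR adjusted p = 3.55e-05). Without both doubted libraries the median log2 fold change of the list was 0.23 instead of -0.83, with 7 lower and 3 higher (14.7% and 10.2% over all genes). ARN1, FRE1 and FRE6 were called in that fit too, but leaving out D273-10B replicate 1 moved ARN1 to -2.57 and FRE1 to -1.95 on the log2 scale. The Aft1 motif TGCACCC was before 19 of the 25 genes and 139 of all 5987 (2.32%). Among cation pumps, the sodium exporters ENA1, ENA2 and ENA5, tandem copies whose counts are uncertain, had log2 fold changes of -1.54, -2.17 and -2.36. ENA5 was at 0.653, 8.06, 3.80 and 3.04 CPM in RM11-1a and 26.0, 13.8, 13.2 and 16.8 CPM in D273-10B, with the library labelled RM11-1a replicate 2 highest of its strain. Without that library ENA2 and ENA5 had log2 fold changes of -3.11 and -2.99.

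Single genes of other roles also differed. AQY2, the water channel of growing cells, was at 0, 0.149, 0.371 and 0.234 CPM in RM11-1a and 9.76, 9.75, 1.30 and 1.79 CPM in D273-10B (log2 fold change -4.80 with a standard error of 0.84, edgeR adjusted p = 0.000711), the opposite direction to AQY1. Of 18 genes of daughter cell separation 3 (16.7%) were higher and 2 (11.1%) lower, against 6.88% and 11.5% over all genes. Among the 13 separation enzymes 2 were higher and 1 lower. Without D273-10B replicates 2 and 3 none of the 18 was higher and 1 was lower. DSE4, a glucanase of the daughter cell that helps it separate, had 8.98, 14.5, 13.5 and 11.0 CPM against 93.0, 34.4, 37.6 and 33.2 CPM (log2 fold change -2.19 with a standard error of 0.31, edgeR adjusted p = 7.55e-05). SMP1, a MADS-box factor, was at 6.04, 3.88, 2.78 and 4.56 CPM in RM11-1a and 158, 30.4, 13.2 and 17.6 CPM in D273-10B (log2 fold change -3.63 with a standard error of 0.56, edgeR adjusted p = 0.000226). Neither DSE4 nor SMP1 overlapped between the strains. D273-10B replicate 1 was highest in both, and without it the log2 fold change of SMP1 was -2.60. MOB2, which binds the kinase Cbk1, was higher, with a log2 fold change of 1.05 with a standard error of 0.24, edgeR adjusted p = 0.00526. THI4, of thiamine synthesis, had a log2 fold change of -1.86 with a standard error of 0.43, edgeR adjusted p = 0.00598 and LYS2, of lysine synthesis, -1.28 with a standard error of 0.28, edgeR adjusted p = 0.00479. Of 21 thiamine genes 5 (23.8%) were higher and 1 (4.76%) lower, against 6.88% and 11.5% over all genes (median log2 fold change 0.28). With the library series as a block 1 of the 21 was higher and 1 lower.

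The count of ribosome genes called turned on single libraries. Of 137 cytosolic ribosomal protein genes 12 (8.76%, against 11.5% over all genes) were called lower and none higher, with a median log2 fold change of -0.85. Without both doubted libraries 67 were lower (14.7% over all genes), and with the library series as a block none was called. The summed level was 351000, 334000, 270000 and 283000 CPM in RM11-1a and 235000, 417000, 563000 and 508000 CPM in D273-10B, where replicate 1 lay below all other 7 libraries. RPL26A, of the large subunit, had 818, 664, 650 and 639 CPM against 665, 1960, 2550 and 1770 CPM (log2 fold change -1.68 with a standard error of 0.46, edgeR adjusted p = 0.0168), and RPS20, of the small subunit, -1.91 (edgeR adjusted p = 0.0218). Within the libraries numbered from 66 both had the opposite sign, 0.46 and 0.47. That contrast sets RM11-1a replicates 1 and 2 against D273-10B replicate 1 alone and so rests on both doubted libraries. These mRNAs are short, and in a fit with a trend of gene length removed from each library 61 were lower (11.5% over all genes). Without D273-10B replicates 2 and 3 none was called, and within the libraries numbered from 66 the median log2 fold change was 0.80. Of 74 ribosome biogenesis genes 12 (16.2%) were lower and none higher, 12 were lower without both doubted libraries and 3 without D273-10B replicates 2 and 3. NOC2, an export factor of the large subunit, was at 80.5, 54.0, 21.4 and 23.8 CPM in RM11-1a and 189, 130, 236 and 94.1 CPM in D273-10B (log2 fold change -2.07 with a standard error of 0.47, edgeR adjusted p = 0.00558). RRP12 and UTP20, of small subunit processing, had log2 fold changes of -2.07 and -3.06. UTP20 was at 31.6, 162, 46.2 and 17.4 CPM in D273-10B, highest in replicate 2, and without D273-10B replicates 2 and 3 it had -1.46 (edgeR adjusted p = 0.133). Of 72 mitochondrial ribosomal protein genes 4 (5.56%, against 11.5% over all genes) were lower and none higher. With the gene length trend removed 20 were lower (11.5% over all genes), and 13 without D273-10B replicate 1 (15.1%). The number was 8 without both doubted libraries (14.7% over all genes) and 1 without D273-10B replicates 2 and 3 (2.37%). MRPL15 was lower by the most, at 109, 80.0, 126 and 84.2 CPM against 160, 285, 417 and 327 CPM (log2 fold change -1.91 with a standard error of 0.38, edgeR adjusted p = 0.00191).

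D273-10B replicates 2 and 3 shared raised levels over stretches of some chromosomes. The median deviation of chromosome IX genes from their median level over the 20 libraries was 0.61 and 0.37 on the log2(CPM + 1) scale in these libraries, and -0.20 and -0.10 in D273-10B replicates 1 and 4. In RM11-1a it was -0.13 to -0.03. Chromosome XII was at 0.22 and 0.18 in the same pair and chromosome I at -0.31 and -0.13. Of 206 chromosome IX genes tested 78 (37.9%) were called, 67 of them lower in RM11-1a, with a median log2 fold change of -0.59. Without D273-10B replicates 2 and 3 the median was -0.09 and 11 genes were called. Of 195 windows of 60 kb with at least 15 genes, 8 were raised by 0.5 or more in both libraries. Of these 3 were among the 7 windows of chromosome IX, 3 on chromosome IV and 1 on chromosome XII. That window, the first of chromosome XII, was at 1.26 and 0.65, while the third was at -0.17 and -0.05. No RM11-1a library had more than 1 window so raised, and D273-10B replicate 1 had 7. The number of chromosome copies was not measured.

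**Figure D5:**
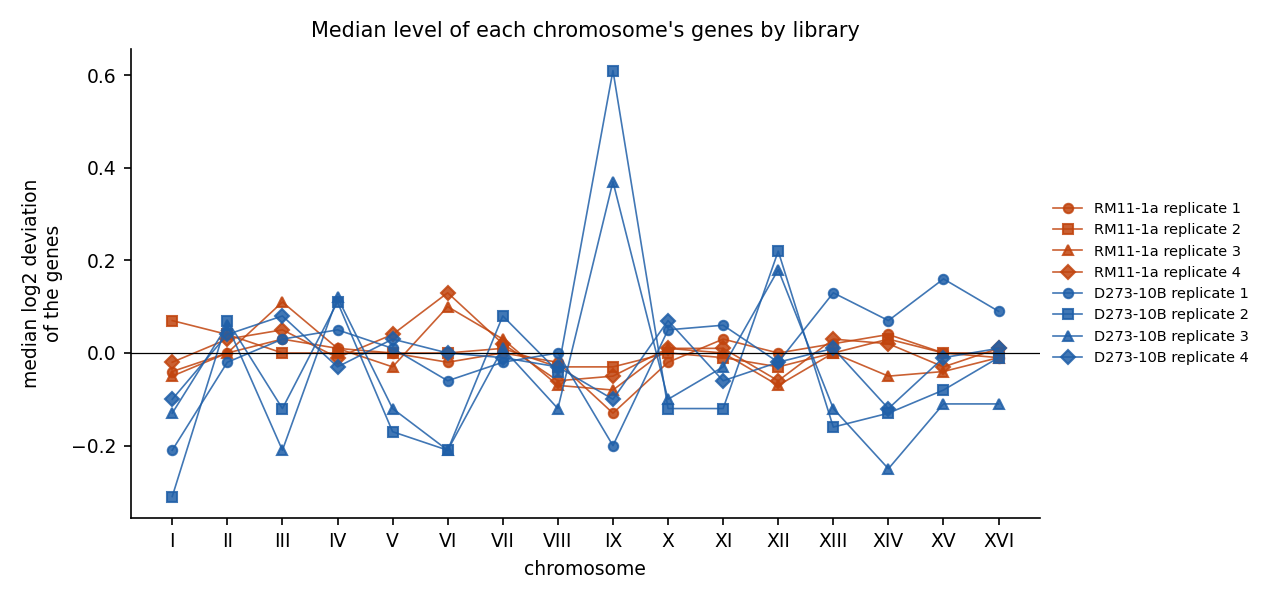
Median deviation of the tested genes of each nuclear chromosome from their median over all 20 libraries, on the log2(CPM + 1) scale, 1 line per library. Chromosome IX reaches 0.61 and 0.37 in D273-10B replicates 2 and 3, and the RM11-1a libraries stay between -0.13 and 0.13 on all chromosomes shown.

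The same pair of libraries carried some of the largest falls in RM11-1a. GAT4, a GATA-type factor on chromosome IX, had 0.591, 73.6, 16.4 and 0.651 CPM in D273-10B and 0, 0.149, 0 and 0.117 CPM in RM11-1a. SPS2, a sporulation gene, had 2.22, 134, 57.0 and 1.14 CPM and 0.163, 0.448, 0.926 and 1.05 CPM. HUL4, a ubiquitin ligase, was high in D273-10B replicate 2 alone, at 3.40, 246, 2.43 and 2.44 CPM against 0.817, 0.597, 2.32 and 1.87 CPM. All 3 passed with all libraries (edgeR adjusted p = 0.00113, 0.00109 and 0.00371). None was called without D273-10B replicates 2 and 3 (edgeR adjusted p = 0.202, 0.337 and 0.265).

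Of the 107 called genes that were chosen by the naming rules and whose values are given, 27 were not called without that pair. Beside GAT4, SPS2 and HUL4 and the genes already given with that fit, these were HSP26, HSP30, TPS1, RIM15, RPS20, RPL26A, NOC2, ILV6, MOB2, SPS100, MEP2, MAL32 and QDR2. TMA10 and LEU3, named after their values were seen, are not in this count and were also not called without that pair. With 1 library of the series left out, 13 of the 107 lost their call in at least 1 of the 20 fits. LEU3, outside the 107, also lost it without D273-10B replicate 1. QDR2 lost it without D273-10B replicate 1 or 2 or RM11-1a replicate 1, 3 or 4, and HUL4 and HSP104 without D273-10B replicate 2. HSP26 lost it without D273-10B replicate 2 or RM11-1a replicate 3 or 4, SPS100 without RM11-1a replicate 3 and FLO5 without RM11-1a replicate 1. RPL26A lost it without D273-10B replicate 3 or RM11-1a replicate 3 or 4, and RPS20 without D273-10B replicate 3 or RM11-1a replicate 1 or 3. TPS1 lost it without D273-10B replicate 3 or RM11-1a replicate 4, and ILV6 without D273-10B replicate 2 or 3. MAL12 lost it without D273-10B replicate 3 or RM11-1a replicate 1 or 2, RIM15 in 11 of the 20 fits and MAL32 in 14.

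Genes near chromosome ends differed more often. Of 338 genes tested within 30 kb of an end, 115 (34.0%) were called, 85 of them lower in RM11-1a, against 946 of 5416 (17.5%) farther in. Without both doubted libraries the shares were 37.6% and 24.1%. Calls of at least 8-fold were 29 near the ends and 99 elsewhere. Many end-proximal genes belong to families with near-identical members, the PAU, COS and FLO genes above among them, and strains differ in which members they hold.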

How the data were processed

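RNA of untreated yeast was sequenced in 20 libraries, 4 of each of 5 strains, and the 8 libraries of RM11-1a and D273-10B are compared here. The deposited table holds whole-number counts of reads per gene, not normalized, with gene identifiers of Ensembl 109 per the file headers. The submitters' processing notes name STAR and Salmon. Which of them gave the counts, and whether strand was used, is not given in the sources used here, so overlapping genes are uncertain. Reads of all strains were counted against 1 gene set, and differences in strain sequence were not analysed here. All 20 columns were mapped to samples by the library numbers and strain names in the labels, leaving 0 columns unused.

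Genes with enough counts in at least 1 strain (filterByExpr) were scaled by TMM and tested with edgeR 4.0.16 in R 4.3.3, by 1 quasi-likelihood model over all 20 libraries with strain as the term. Strains other than the compared pair enter to estimate the spread. Benjamini-Hochberg adjustment covered all 6119 genes tested, and a gene was called at an adjusted p under 0.05. CPM was taken from deposited counts and library totals. Standard errors are the log2 fold change divided by the square root of F. The scripts were tested on simulated data. The floor of 3 counts covers counting error only.

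Alternatives were DESeq2 1.42.0 (test and size factors), other filters, the 8 libraries alone, blocks of replicate number or library series, a gene length trend, each library left out, and sets of libraries left out. The fits without D273-10B replicates 2 and 3 and with chromosome medians as offsets were chosen after seeing the data.

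Named genes are all members of the mating type, cassette and genotype lists, the 12 largest rises and 12 largest falls called with all libraries and without both doubted ones with no overlap, up to 4 called members of each list with its regulators, and genes near 0 in 1 strain. CWP2, LEU1, LEU3, TMA10, REE1 and MET17 were named after their values were seen. The compared strains, the 47 gene lists and the motifs were chosen with earlier results of these data known. Names, coordinates and promoters are those of RefSeq for R64, matched for 6047 of 7127 identifiers. Motifs were searched on both strands in the 500 bases before the start codon.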

Additional observations from a re-analysis of the deposited data

Results flagged for a closer look

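Among the genes named, 243 groups of 4 libraries were checked for a library far from the other 3, and 32 were flagged. A gene was flagged in 1 strain where the gap between the farthest library and the nearest other one took most of the range of the 4 (Dixon criterion at the 95% level). The number flagged cannot be compared with chance, because some genes were named by values of part of the libraries. YML045W, YER160C and YIL014C-A were named through RM11-1a replicates 1, 3 and 4 alone, so more than 3 counts in replicate 2 were built in. D273-10B replicate 1 stood out in 15 of the 32, among them in SAG1 at 129 CPM against 11.9 to 25.4 CPM, HO at 81.9 CPM against 14.3 to 18.1 CPM, SCS3 at 21 CPM against 1.95 to 2.97 CPM and ARN1 at 262 CPM against 6.84 to 17.1 CPM in the other 3 D273-10B libraries. The same library held SMP1 at 158 CPM against 13.2 to 30.4 CPM, FRE1 at 154 CPM against 8.14 to 27.8 CPM, ALD3 at 23.8 CPM against 10.4 to 11.6 CPM and MSN2 at 14.3 CPM against 3.26 to 4.87 CPM in the other 3 D273-10B libraries. It further held GIT1 at 29.6 CPM against 6.51 to 9.17 CPM, DSE4 at 93.0 CPM against 33.2 to 37.6 CPM, MOB2 at 11.5 CPM against 6.67 to 7.27 CPM and PAU1 at 6.80 CPM against 2.07 to 2.60 CPM in the other 3 D273-10B libraries. Last, it held GAT1 at 7.09 CPM against 2.17 to 2.56 CPM, YML045W at 478 CPM against 90.0 to 103 CPM and YER160C at 329 CPM against 61.9 to 79.3 CPM in the other 3 D273-10B libraries.

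The library labelled RM11-1a replicate 2 stood out in 9, with STE3 at 8.06 CPM against 1.31 to 1.85 CPM, HO at 60.9 CPM against 0.0926 to 0.327 CPM and PHO3 at 427 CPM against 131 to 176 CPM in the other RM11-1a libraries. It also had AI1 at 2.54 CPM against 0 CPM, PHO4 at 179 CPM against 100.0 to 113 CPM and QDR2 at 77.3 CPM against 2.22 to 3.74 CPM in the other RM11-1a libraries. Its other flagged genes were YML045W at 179 CPM against 0 to 0.278 CPM, YER160C at 151 CPM against 0 to 0.351 CPM and YIL014C-A at 23.0 CPM against 0 CPM in the other RM11-1a libraries. HO, YML045W, YER160C and YIL014C-A are among the 10 genes near 0 in the other RM11-1a libraries that BY4741 expressed, so their flags repeat that observation. In D273-10B replicate 2 the flagged genes were STE5 at 40000 CPM against 96.6 to 6560 CPM and HUL4 at 246 CPM against 2.43 to 3.40 CPM, and in replicate 3 it was ATP6 at 13.7 CPM against 1.49 to 3.09 CPM. RM11-1a replicate 1 had RPL26A at 818 CPM against 639 to 664 CPM, RRP12 at 17.0 CPM against 4.63 to 6.19 CPM and ELO1 at 388 CPM against 774 to 850 CPM, of which ELO1 was the low value. RM11-1a replicate 4 had MF(ALPHA)2 at 1.64 CPM against 0.817 to 0.896 CPM and MEP2 at 41.7 CPM against 10.9 to 15.9 CPM.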

How the results depend on the processing

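The number of genes called, 1127 with all libraries, was 226 with only the 8 libraries in the fit, 459 with the library series as a block, 308 within the libraries numbered from 66 and 293 without D273-10B replicates 2 and 3. Genes called higher, 421 with all libraries, numbered 128, 251, 120 and 147 in these 4 fits, and 637 with D273-10B replicate 1 and the library labelled RM11-1a replicate 2 left out. Genes called lower, 706 with all libraries, numbered 98, 208, 188 and 146 in the same 4 fits, and 468 among genes with a mean of at least 10 CPM. Of the calls, 37.4% were higher with all libraries and 56.6% with the 8 libraries alone. Leaving out 1 library at a time gave 671 to 1599 calls, 269 to 664 higher and 384 to 935 lower. The lowest total came without RM11-1a replicate 4 and the highest without D273-10B replicate 1. DESeq2 called 1384 genes, the fit with a gene length trend 1216 and that with no filter 1155. The mating type count of 11 stayed within 1.5 times in every alternative run. The genotype count, 4 with all libraries, was 2 under the 10 CPM filter, with the 8 libraries, with the library series as a block, within the libraries numbered from 66, with the length trend and replicate block together, and without D273-10B replicates 2 and 3, and 2 to 4 with 1 library left out. The log2 fold changes of RPS20 and RPL26A turned to 0.47 and 0.46 within the libraries numbered from 66, which hold D273-10B replicate 1 as the only library of its strain. The causes of these shifts were not tested. Over the genes named and all alternatives, 3898 values kept their direction and side of the threshold, 198 lost the call, 25 gained one and 2 reversed.

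With the replicate number as a block 980 genes were called. Same-numbered libraries of the strains had correlations of 0.280, -0.039, 0.376 and -0.034 between their deviations from the strain means. Libraries with different numbers had -0.447 to 0.213. These mixed values do not settle whether the numbers pair the samples. Depth limits genes under the floor of 3 counts per library, which is up to 0.49 CPM in these 8 libraries.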
